A study of Nicrophorus vespilloides with 60 samples.

Results

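Larvae of the No Care populations (NC POP) of the burying beetle *Nicrophorus vespilloides* were compared when raised without their parents (NC ENV) and with them (FC ENV). The libraries were chosen by population and environment alone: the 12 NC ENV libraries of the no-care lines N2 and N1 against the 11 FC ENV libraries of the same lines, which makes 23 of the 46 RNA libraries and of the 60 samples in the series. N2 gave 6 NC ENV and 5 FC ENV libraries, and N1 gave 6 and 6. All 23 came from pairs of generation 29 of lines kept without post-hatching care, so that larvae of generation 30 in FC ENV met a family environment that their line had not been given during the experiment. In NC ENV both parents were taken away 53 h after pairing, before the larvae hatched, and in FC ENV they stayed. Larvae were collected 80 h after pairing, and each library pooled 4 heads of 1 family. A family is therefore the replicate, and a p-value measures the spread among families. Each line stands for 1 block, so line and block cannot be told apart. The comparison asks which genes still answer to the presence or absence of parents in larvae of lines that evolved without them, and whether both lines answer alike.

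Burying beetle parents raise their brood on a small buried carcass, where they defend the larvae and feed them with regurgitated food. Larvae of this species can also feed themselves and survive without parents. The surface of a larva is a cuticle of chitin and structural proteins, which the epidermis makes anew around each moult, and the genes of these proteins are switched on and off in step with it. Enzymes such as cytochromes P450 and UDP-glucuronosyltransferases modify hormones and foreign compounds, and lysozymes and clotting proteases belong to insect immunity.

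Library totals lay between 102719698 and 145666277 counts. Their median was 113727766 in NC ENV and 118991680 in FC ENV. Of 13761 genes, 11728 had enough counts to be tested. Gene identity was limited: 82 identifiers were paired with a RefSeq symbol and product by the study's own list of genes. The study chose that list on libraries that include the NC ENV families of N2 and N1, so the direction of a listed gene is not independent evidence. Head tissue could not be checked against markers, since none of the paired products marks eye, brain or muscle.

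Some families did not lie with their environment. For each library, the genes called without it were used to ask whether it was nearer the other environment of its line. Family 27 of N1 in FC ENV was nearer NC ENV on 75.3% of 515 genes, with 64.8% of the rises and 92.4% of the falls. Family 8 of N2 in NC ENV was nearer FC ENV on 69.2% of 490 genes, with 87.8% of the falls but 47.6% of the rises. Family 21 of N2 in FC ENV was nearer NC ENV on 60.9% of 419 genes, with 65.3% of the rises and 53.8% of the falls. Family 29 of N1 in FC ENV was so on 51.6% of 469 genes, with 65.5% of the rises but 12.9% of the falls, so that on the falls it lay with its own environment. For the other 19 libraries the share lay between 3.85% and 33.8%. On gene1328, gene3693 and the S6KL-like gene, described first, all 4 families lay with their labelled environment. Those 3 genes are described because they separate the labelled environments in all 23 libraries, so this follows from their choice. Whether labels or samples were exchanged was not tested, and every environment named here is that of the label. The counts below are therefore given with all 23 libraries and without these 4 families, a choice made after their values were seen. Leaving out families because they lie against the contrast tends by itself to give more calls and larger fold changes.

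Over both lines, 330 genes differed between NC ENV and FC ENV, which is 2.81% of the genes tested. A gene was called at an adjusted p under 0.01 in edgeR's quasi-likelihood test and an absolute log2 fold change of at least 1. Of these, 201 (1.71% of the genes tested) were higher in NC ENV and 129 (1.1%) were lower. All 201 had a positive and all 129 a negative fold change in both lines. They were called on the same libraries of both lines, which makes a shared sign likely. Of all genes tested, 76.1% had the same sign in both. Without the 4 families 964 genes were called, 606 higher and 358 lower, and 317 of the 330 were among them. In bulk RNA, fewer cells of a type and less RNA per cell cannot be told apart.

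The changes with the lowest p were moderate in size and of like size in both lines. Ranking by p in the pooled fit favours genes with little spread and a like change in both lines. Gene1328, an identifier with no paired product, had in N2 a lowest, median and highest level of 35, 50.6 and 74.5 CPM (counts per 1000000 of the effective library size) in NC ENV, against 11.8, 12.5, 13.2, 21.5 and 10.9 CPM in FC ENV. In N1 the same values were 44.6, 58.2 and 73.4 CPM in NC ENV, against 17.6, 21.1 and 28.3 CPM in FC ENV. Every NC ENV family lay above every FC ENV family. The pooled log2 fold change was 1.63 ± 0.14 (SE; adjusted p = 1.39e-07), with 1.89 ± 0.20 in N2 and 1.39 ± 0.18 in N1.

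Gene3693, also unpaired and among the most abundant genes that changed, went the other way. Its lowest, median and highest levels in N2 were 557, 723 and 949 CPM in NC ENV, against 1730, 1528, 1742, 1279 and 1802 CPM in FC ENV. In N1 they were 460, 598 and 703 CPM in NC ENV, against 982, 1360 and 1627 CPM in FC ENV. All 12 NC ENV families lay below all 11 FC ENV families, with families 8 and 27 as the neighbours on either side of the gap. It fell by 1.17 ± 0.10 on the log2 scale (SE; adjusted p = 1.39e-07), with -1.13 ± 0.15 in N2 and -1.20 ± 0.14 in N1. Such a clean separation was rare: 137 genes, 1.17% of those tested, had no overlap between the environments over all 23 libraries, 43 (0.367%) higher and 94 (0.802%) lower in NC ENV. They held 9 of the 201 genes that rose and 3 of the 129 that fell. Within a line the environments separated more often. Fewer families have to lie apart there, with 5 in FC ENV in N2 and 6 in N1, so these counts cannot be compared with each other or with the count over all 23. In N2, 1456 genes (12.4%) had no overlap, 702 higher (5.99%) and 754 lower (6.43%) in NC ENV, and these held 65 of the 201 rises and 19 of the 129 falls. In N1, 663 genes (5.65%) had none, 244 higher (2.08%) and 419 lower (3.57%), with 54 of the rises and 17 of the falls.

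The kinase gene S6KL-like (LOC108563905), from a family of serine/threonine kinases related to S6 kinase, was another without overlap. It stood at 2.62 to 6.89 CPM over the NC ENV families (median 3.52) and at 1.39 to 2.55 CPM over the FC ENV families (median 1.99). Its log2 fold change of 0.94 ± 0.15 (SE; adjusted p = 5.34e-05) was just under the minimum, so it is not among the 330. In N2 the fold change was 1.0 ± 0.22 and in N1 0.89 ± 0.20.

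**Figure D1:**
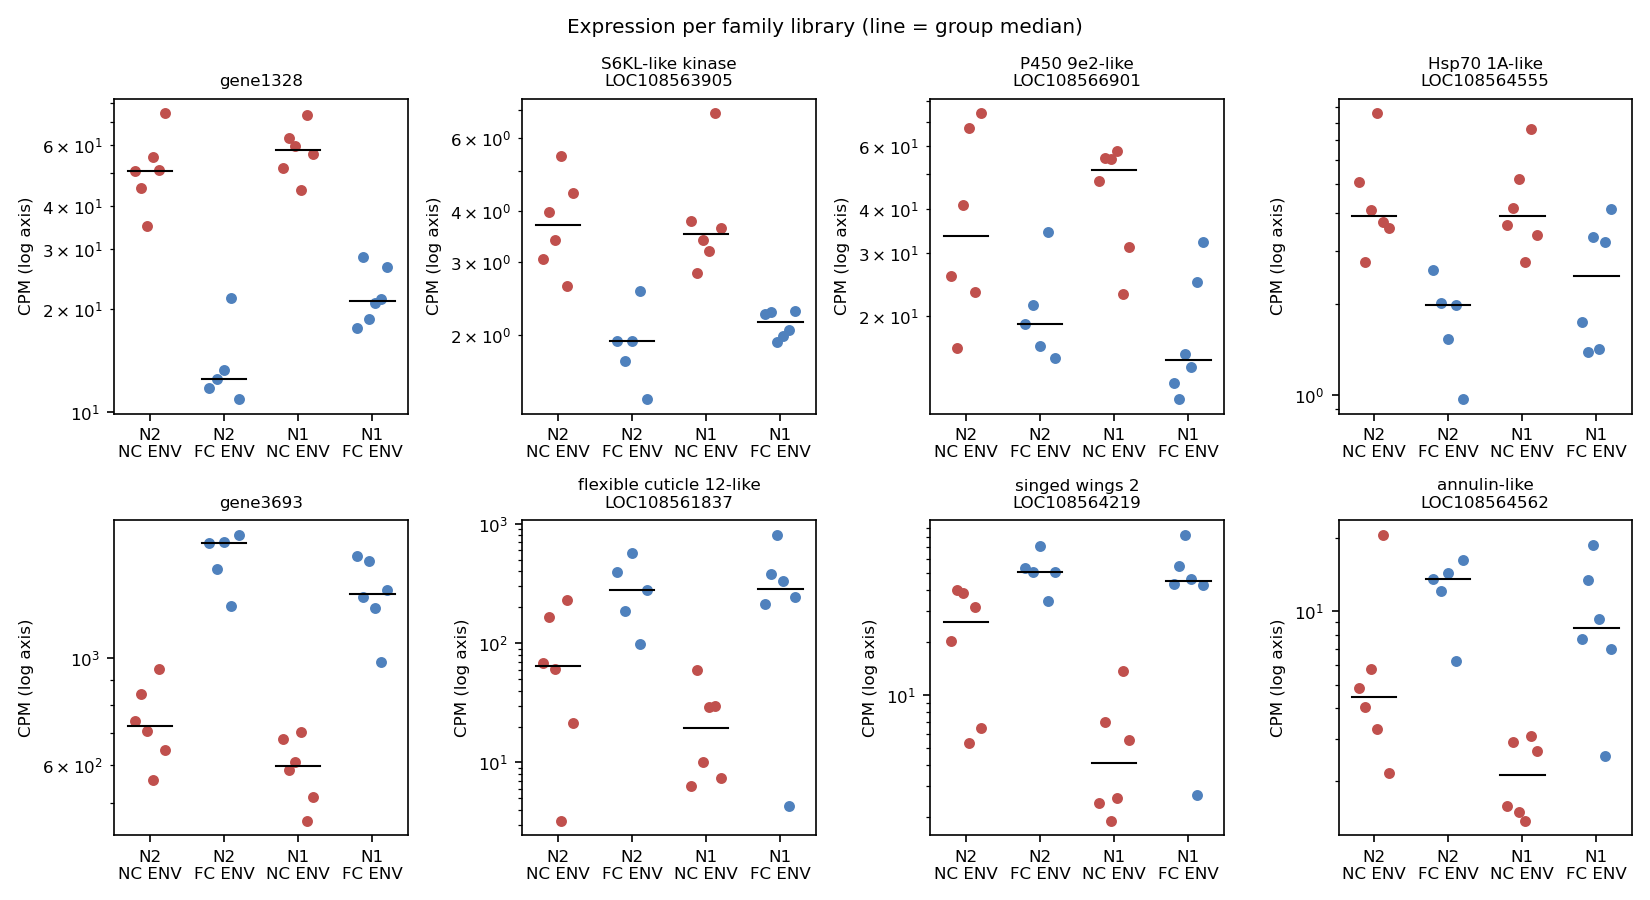
Level of 8 genes in each family library, in CPM on a log axis; each point is 1 library, the bar is the group median, and NC ENV (red) stands left of FC ENV (blue) for N2 and N1. The environments do not overlap for gene1328, gene3693 and the S6KL-like gene, whereas 1 FC ENV family of N1 (family 27) lies among the NC ENV families for the flexible cuticle protein and singed wings 2.

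In each line on its own, 148 genes were called in N2 (1.26% of the genes tested) and 140 in N1 (1.19%). In N2, 128 of them were higher in NC ENV (1.09%) and 20 lower (0.171%). In N1, 53 were higher (0.452%) and 87 lower (0.742%). No gene was called with opposite signs in the 2 lines. The lists shared 30 of the rises, which is 23.4% of those in N2 and 56.6% of those in N1. They shared 9 of the falls, 45% of those in N2 and 10.3% of those in N1.

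The unequal shares of rises and falls depended on single families. Without family 8 of N2, 261 genes were called in N2, 133 higher and 128 lower. Without family 21 of N2, 311 genes were called there, 281 higher and 30 lower. Leaving out family 1, 16, 17 or 18 of N2 left 71 to 94 calls in N2. Without family 27 of N1, 314 genes were called in N1, 113 higher and 201 lower, a split like that with all libraries. Without family 29 of N1 the split was 98 higher and 89 lower, without family 30 it was 49 and 41, without family 33 it was 37 and 36, and without family 35 it was 50 and 46. Leaving out family 22, 23, 25, 26, 30, 33 or 40 of N1 left 63 to 92 calls in N1. With all 4 families that stood apart left out, N2 had 411 rises and 222 falls, and N1 had 236 rises and 279 falls.

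Tested directly, no gene differed between the responses of N2 and N1 (0% of 11728; lowest adjusted p = 0.415). At an unadjusted p under 0.05, 1016 genes (8.66%) did, and DESeq2 called 6. Genes called in 1 line mostly had the same sign in the other. Of the 128 N2 rises, 127 were positive in N1, with a median log2 fold change of 1.28 in N2 and 0.77 in N1. All 53 N1 rises were positive in N2, with medians of 1.26 in N2 and 1.33 in N1. Of the 20 N2 falls, 18 were negative in N1, with medians of -1.28 in N2 and -0.87 in N1. All 87 N1 falls were negative in N2, with medians of -1.35 in N2 and -2.71 in N1. A list is largest in the line that chose it, and the median over all genes tested was 0.12 in N2 and 0.05 in N1. Over the 129 genes that fell in the pooled comparison, 106 had the larger fall in N1. Over all 11728 genes the fold changes of both lines had the same sign for 76.1%, and their correlation across genes, which are not independent replicates, was 0.59.

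**Figure D2:**
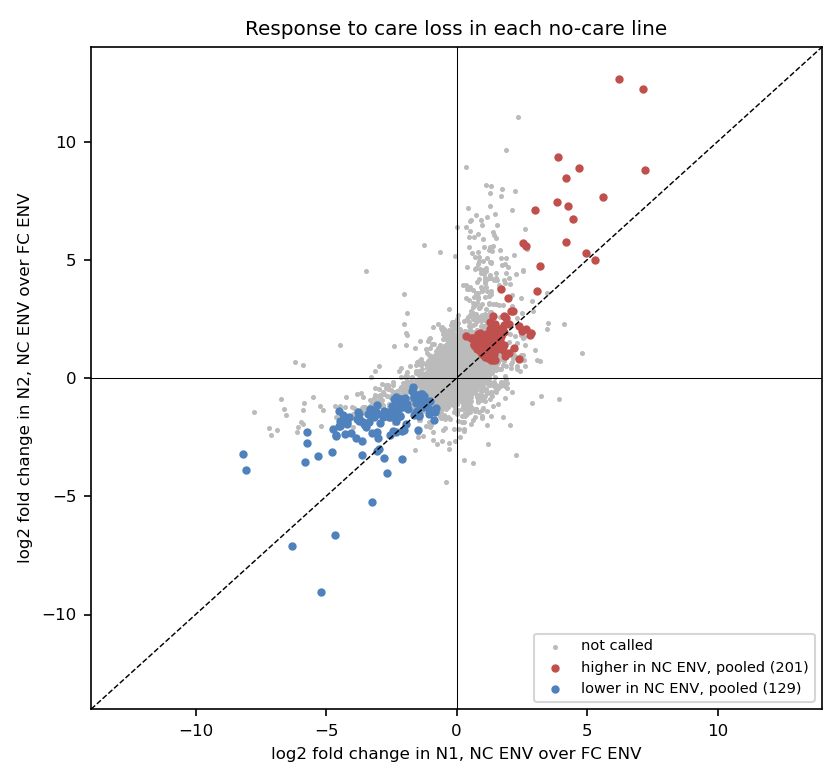
Log2 fold change of NC ENV over FC ENV in N2 (y axis) and in N1 (x axis) for the 11728 genes tested; each point is a gene, coloured where called in the pooled comparison, and the dashed line marks equal change. The 201 genes higher in NC ENV lie in the upper right and the 129 lower ones in the lower left, most of these on the N1 side of the line.

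Of the 82 genes with a product, 75 were tested: 18 rose, 9 fell and 48 were not called. Cuticle proteins make up the longest of the lists. Of 10 such genes tested, 4 fell, 2 rose and 4 were not called, where 1.1% of all genes tested fell and 1.71% rose and where the study's choice of genes used these libraries in part. They had a median log2 fold change of -2.29 against 0.09 over all genes tested. In N2 the median was -1.23 and no cuticle gene was called, and in N1 it was -3.14 and 2 were called. Without the 4 families that stood apart, 8 of the 10 fell and 2 rose, where 3.03% of all 11824 genes then tested fell and 5.13% rose, and the medians were -1.87 in N2 and -3.57 in N1. Those 8 comprised the 4 that fell with all libraries and the 4 that were not called. Families 27 of N1 and 8 of N2, far out on these genes, were among those left out, so more falls partly follow from that choice.

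Flexible cuticle proteins belong to the soft, bendable cuticle of larvae, and all 3 genes named for such a protein fell. For the first, LOC108561837, the lowest, median and highest levels in N2 were 3.25, 64.5 and 229 CPM in NC ENV, against 396, 186, 573, 98.8 and 277 CPM in FC ENV. In N1 they were 6.32, 19.5 and 60.0 CPM in NC ENV, against 4.33, 286 and 811 CPM in FC ENV. The environments overlapped in both lines, in N1 through family 27 alone, whose 4.33 CPM stood under all 6 NC ENV families. In N2 families 7 and 10 in NC ENV had 3.25 and 21.4 CPM, and family 8 had 229 CPM. The pooled log2 fold change was -2.84 ± 0.71 (SE; adjusted p = 0.00439), with -1.74 ± 0.90 in N2 and -3.80 ± 0.94 in N1. It stayed called when any 1 library was left out, with an adjusted p of up to 0.00963.

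LOC108561729, the second flexible cuticle gene, fell by 2.35 ± 0.59 on the log2 scale (adjusted p = 0.00465), with -1.38 ± 0.76 in N2 and -3.19 ± 0.78 in N1. The third, LOC108567288, fell by 2.38 ± 0.64 (adjusted p = 0.00709), and its call was lost without family 10, 18 or 24 of N2 or 22, 25, 33, 35 or 40 of N1 (adjusted p up to 0.0135). A larval cuticle gene, A2B-like LOC108557600, had a median of 120 CPM in NC ENV, against 462 CPM in FC ENV, and fell by 1.55 ± 0.41 (adjusted p = 0.00669). That call was lost without family 10, 16 or 18 of N2 or 25, 32, 33, 35 or 40 of N1, with an adjusted p of up to 0.0122.

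The other larval and pupal cuticle genes had fold changes as large with more spread. A second A2B-like gene, LOC108563891, had a lowest, median and highest level of 8.52, 212 and 1822 CPM in NC ENV, against 5.23, 1584 and 3568 CPM in FC ENV. Its log2 fold change was -2.43 ± 0.88 and did not pass (adjusted p = 0.036). A3A-like LOC108557124 had -2.82 ± 0.87 (adjusted p = 0.0162), pupal cuticle 20-like LOC108558459 had -2.24 ± 0.66 (adjusted p = 0.013) and pupal C1B-like LOC108561102 had -1.57 ± 0.67 (adjusted p = 0.0707). Leaving out family 8 of N2 or family 27 of N1 brought LOC108557124 and LOC108558459 past the threshold, with adjusted p of 0.0082 and 0.00808 for the A3A-like gene and of 0.0011 and 0.0030 for the pupal cuticle gene. LOC108558459 also passed without family 21 of N2.

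The 8 genes moved together from family to family. In N1 in FC ENV, family 27 had the lowest level of all 8 and family 25 the highest of all 8. In N2, family 8 had the highest level of all 8 among the NC ENV families, family 7 the lowest of 7, and family 21 the lowest of all 8 among the FC ENV families. A few families were thus far out on nearly all of these genes at once.

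A pair of pupal cuticle C1B-like genes behaved otherwise. They are neighbouring records in RefSeq's gene table of the assembly. LOC108559211 had a lowest, median and highest level of 39.7, 179 and 752 CPM in NC ENV, against 46.3, 91.2 and 224 CPM in FC ENV. LOC108559212 had 96.9, 539 and 1602 CPM in NC ENV, against 58.5, 218 and 406 CPM in FC ENV. Both rose, by a log2 fold change of 1.5 ± 0.40 (adjusted p = 0.00663) and of 1.57 ± 0.42 (adjusted p = 0.0073), with overlap between the environments. In N2 the fold changes were 1.44 ± 0.60 and 1.76 ± 0.63, and in N1 they were 1.56 ± 0.56 and 1.41 ± 0.59. The calls were lost in 13 and 13 of 23 leave-outs, with adjusted p of up to 0.0158 and 0.0159. Similar neighbouring copies can also share reads.

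**Figure D3:**
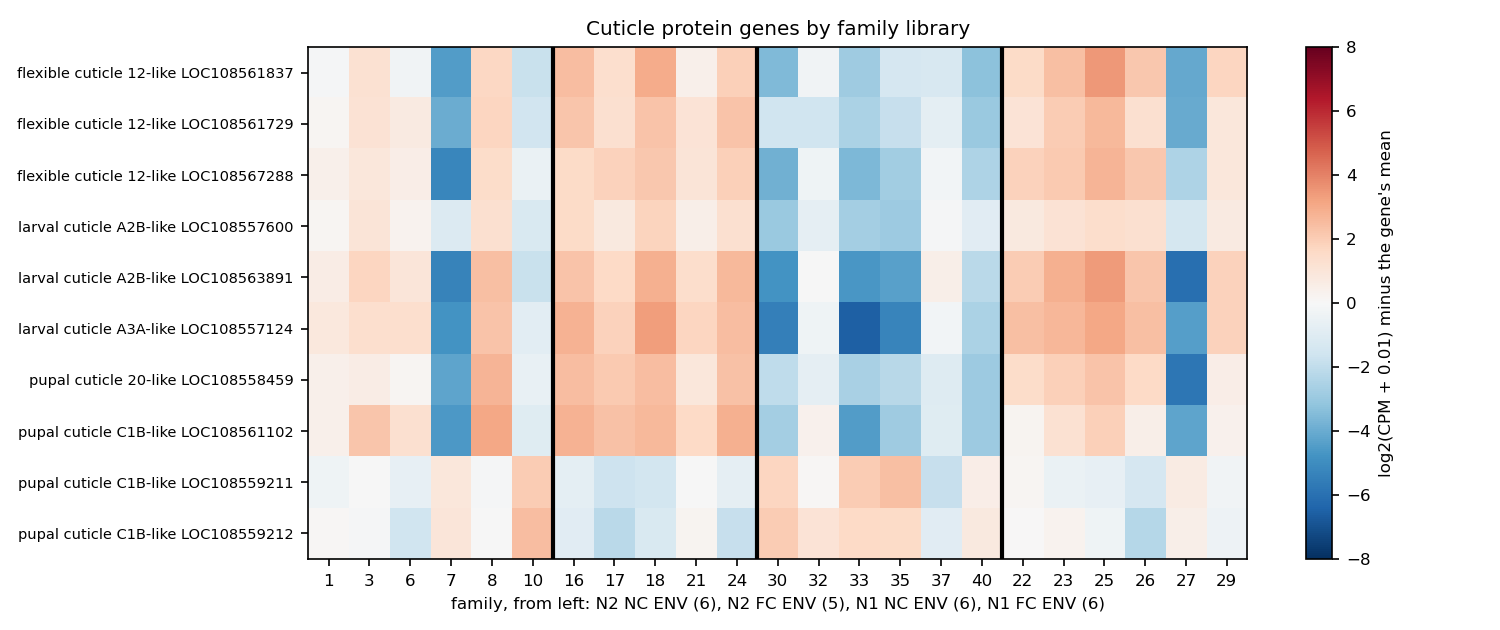
Level of the 10 cuticle protein genes in each family, as log2(CPM + 0.01) minus the gene's mean over the 23 libraries (red higher, blue lower); families stand in columns, NC ENV left of FC ENV for N2 and then N1. The upper 8 genes are low together in most NC ENV families of N1, in family 7 of N2 and in family 27 of N1 from FC ENV, and the lower pair is high in families 30, 33 and 35 of N1 and family 10 of N2.

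Genes of other functions followed the 8 cuticle genes. Singed wings 2 (LOC108564219), named for a wing phenotype in *Drosophila*, had a lowest, median and highest level in N2 of 5.31, 26.2 and 39.9 CPM in NC ENV, against 53.1, 50.2, 70.8, 34.6 and 50.3 CPM in FC ENV. In N1 it had 1.91, 4.07 and 13.7 CPM in NC ENV, against 2.68, 44.8 and 82.4 CPM in FC ENV. In N1 family 27 alone made the environments overlap, and in N2 the FC ENV family that lay within the NC ENV range was family 21. It fell by 2.14 ± 0.51 on the log2 scale (adjusted p = 0.00294), with -1.13 ± 0.62 in N2 and -3.03 ± 0.64 in N1, and its call held in every leave-out.

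NADPH oxidase 5 (LOC108564697), an enzyme that makes superoxide, had a lowest, median and highest level of 11.6, 31.3 and 222 CPM in NC ENV, against 17.2, 129 and 287 CPM in FC ENV. Its fall of 1.63 ± 0.46 (adjusted p = 0.0099) lay at the threshold and was lost in 20 of 23 leave-outs (adjusted p up to 0.0191). Phospholipase B1-like LOC108560373, a membrane lipid hydrolase, fell by 2.96 ± 0.78 (adjusted p = 0.00643), and its call was lost in 9 of 23 leave-outs (adjusted p up to 0.0128). Uncharacterized LOC108559825 fell by 1.56 ± 0.36 (adjusted p = 0.00259) and held in all 23. In N2 its fold change was -0.92 ± 0.48 (adjusted p = 0.18) and in N1 -2.13 ± 0.48 (adjusted p = 0.00412), so it was called in N1 only.

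A few of these genes were called in N1 and not over both lines. App1-like LOC108562653 had in N2 a median of 24.2 CPM in NC ENV and 99.3 CPM in FC ENV, with a log2 fold change of -2.13 ± 1.43 (adjusted p = 0.302). In N1 the medians were 0.211 CPM in NC ENV and 129 CPM in FC ENV, with a fold change of -7.20 ± 1.76 (adjusted p = 0.00775). Glucose dehydrogenase LOC108561928, a sugar-oxidising enzyme that *Drosophila* needs to emerge from the pupa, had medians in N2 of 3.99 CPM in NC ENV and 38.6 CPM in FC ENV (log2 fold change -1.17 ± 0.98, adjusted p = 0.415). In N1 they were 0.657 CPM in NC ENV and 17.7 CPM in FC ENV (-4.66 ± 1.09, adjusted p = 0.0058). Neither difference between the lines passed (adjusted p = 0.563 for both). Without family 8 of N2 the pooled fold change of glucose dehydrogenase passed with an adjusted p of 2.42e-05. It also passed without family 27 of N1 and without family 21 of N2.

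The remaining sugar genes gave no call, so of 5 genes of sugar handling 0 rose and 0 fell. Of all genes tested, 1.71% rose and 1.1% fell, so 5 genes say little here. The trehalose transporter Tret1-like LOC108564221 had a pooled log2 fold change of -1.85 ± 0.64 (adjusted p = 0.0282), with at most 0.779 CPM in any library. Pyruvate kinase-like LOC108560350, of the last step of glycolysis, had 0.88 ± 0.23 (adjusted p = 0.00686), under the minimum fold change. Without the 4 families, 1 sugar gene rose and 2 fell, where 5.13% of all 11824 genes then tested rose and 3.03% fell.

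Of 6 immune and clotting genes, 2 rose, 1 fell and 3 were not called, where 1.71% of all genes tested rose and 1.1% fell. They too were chosen by the study partly on these libraries. Lysozyme C-like LOC108566479, whose product breaks bacterial cell walls, had a lowest, median and highest level of 3.25, 20.1 and 53.2 CPM in NC ENV, against 3.80, 7.05 and 18.6 CPM in FC ENV. It rose by a log2 fold change of 1.49 ± 0.38 (adjusted p = 0.00513), with 1.51 ± 0.57 in N2 and 1.47 ± 0.53 in N1, and was lost in 6 of 23 leave-outs (adjusted p up to 0.0112). Those left out family 10, 16, 18 or 24 of N2, or family 25 or 30 of N1. Proclotting enzyme-like LOC108558248, a serine protease of the clotting cascade, had 0.745, 4.58 and 6.56 CPM in NC ENV, against 0.514, 1.36 and 3.91 CPM in FC ENV. Its log2 fold change of 1.43 ± 0.33 (adjusted p = 0.00259), with 1.38 ± 0.50 in N2 and 1.46 ± 0.47 in N1, held in every leave-out.

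Annulin-like LOC108564562, a transglutaminase that cross-links proteins, fell. Its lowest, median and highest levels in N2 were 2.18, 4.45 and 20.7 CPM in NC ENV, against 13.6, 12.2, 14.4, 6.28 and 16.2 CPM in FC ENV. In N1 they were 1.38, 2.13 and 3.07 CPM in NC ENV, against 2.54, 8.50 and 18.8 CPM in FC ENV. Family 8 of N2 stood above all FC ENV families, and family 27 of N1 within the NC ENV range. The fold change was -1.56 ± 0.38 (adjusted p = 0.00336), and it held in every leave-out. C-type lectin 37Db-like LOC108560296, which binds sugars on cell surfaces, had -1.0 ± 0.26 (adjusted p = 0.00588), which before rounding is just under the minimum fold change, and it was called in 13 of 23 leave-outs. Defensin LOC108558285, an antimicrobial peptide, had -0.65 ± 1.09 and dual oxidase 1-like LOC108567087 had 0.52 ± 0.31, with adjusted p of 0.669 and 0.198. From family to family, these immune and clotting genes varied with the cuticle genes of negative fold change. Deviations from the mean of each line and environment were correlated with those of these cuticle genes' mean. The correlation was -0.736 for lysozyme, -0.732 for proclotting enzyme and 0.785 for annulin. It was 0.462 for C-type lectin, 0.401 for defensin and -0.417 for dual oxidase. Whether they changed independently of the cuticle genes was not tested.

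Of 4 cytochrome P450 genes, 3 rose and 0 fell, against 1.71% and 1.1% of all genes tested, and they come from the same list. The 9e2-like gene LOC108566901 had a lowest, median and highest level of 16.3, 44.4 and 74.1 CPM in NC ENV, against 11.7, 16.5 and 34.5 CPM in FC ENV. The environments overlapped, and the highest FC ENV levels were those of family 21 of N2 and families 29 and 27 of N1. It rose by 1.12 ± 0.26 (adjusted p = 0.00217), with 0.95 ± 0.38 in N2 and 1.27 ± 0.36 in N1, and held in every leave-out. A 4C1-like gene, LOC108560973, rose by 1.39 ± 0.36 (adjusted p = 0.00525), with 1.53 ± 0.53 in N2 and 1.27 ± 0.50 in N1. Its call was lost without family 10, 16, 17, 18 or 24 of N2 (adjusted p up to 0.0115). The weak 9e2-like gene LOC108557937, at a median of 1.28 CPM in NC ENV and 0.585 CPM in FC ENV, rose by 1.06 ± 0.29 (adjusted p = 0.00824) and was lost in 16 of 23 leave-outs (adjusted p up to 0.0197). Without the 4 families, 2 of the 4 P450 genes rose, where 5.13% of all 11824 genes then tested did. LOC108557953, not called with all libraries, had 1.62 ± 0.68 (adjusted p = 0.0663), with 0.51 ± 0.90 in N2 and 2.61 ± 0.88 in N1. Within N1 its environments did not overlap (adjusted p = 0.0474), at levels of at most 0.725 CPM. The difference between the lines did not pass (adjusted p = 0.62). The same correlation of deviations with the cuticle genes was -0.626 for LOC108566901, -0.536 for LOC108560973, -0.354 for LOC108557953 and 0.265 for LOC108557937.

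The UDP-glucuronosyltransferase 2B13-like gene LOC108564048, of the second phase of detoxification, had a lowest, median and highest level of 0.385, 2.97 and 9.66 CPM in NC ENV, against 0, 0.495 and 2.22 CPM in FC ENV. It rose by 2.14 ± 0.58 (adjusted p = 0.00718), with 2.28 ± 0.87 in N2 and 2.01 ± 0.80 in N1. The call was lost in 11 of 23 leave-outs (adjusted p up to 0.0172). Within N1 its environments did not overlap. Its deviations had a correlation of -0.448 with those of the cuticle genes.

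Farnesol dehydrogenase-like LOC108563277, an enzyme of a late step of juvenile hormone synthesis, had a lowest, median and highest level of 1.37, 13.9 and 41.7 CPM in NC ENV, against 1.21, 4.88 and 11.1 CPM in FC ENV. Juvenile hormone keeps moults larval, and the last enzyme of its synthesis on the list was too weakly counted to be tested. Farnesol dehydrogenase rose by 1.51 ± 0.40 (adjusted p = 0.00606), with 1.29 ± 0.59 in N2 and 1.72 ± 0.56 in N1. Family 8 of N2 had 1.37 CPM, where the other NC ENV families of N2 had 9.65 to 27.7 CPM. The call was lost in 10 of 23 leave-outs (adjusted p up to 0.0137).

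Heat shock 70 kDa protein 1A-like LOC108564555, a chaperone, had in N2 a lowest, median and highest level of 2.76, 3.94 and 8.60 CPM in NC ENV, against 2.60, 2.02, 1.54, 1.99 and 0.969 CPM in FC ENV. In N1 it had 2.76, 3.92 and 7.65 CPM in NC ENV, against 1.39, 2.48 and 4.14 CPM in FC ENV. The environments did not overlap in N2, and in N1 they did. It rose by 1.07 ± 0.24 (adjusted p = 0.00219), with 1.35 in N2 and 0.81 in N1. The pooled fold dropped under 1 without family 7 or 24 of N2 or family 23, 26 or 37 of N1, to 0.92 at the lowest. In the lines that kept full care, the same contrast was -0.05 ± 0.39 (46-library fit), and the no-care response exceeded it by 1.27 ± 0.55 on the log2 scale. That difference did not pass (adjusted p = 0.563).

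Of all 11777 genes tested over the 46 libraries, none had a response that differed between the no-care lines and the full-care lines (0%, lowest adjusted p = 0.526 in edgeR). At an unadjusted p under 0.05 there were 940 (7.98%), and DESeq2 called 1. Of the 47 genes followed, 3 were among them, the heat shock gene with the higher value in the no-care lines and 2 with the lower. The difference was -1.05 ± 0.51 for the kainate receptor 2-like gene LOC108561581 (adjusted p = 0.621) and -3.79 ± 1.54 for gene11815 (adjusted p = 0.547), both described below.

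Further named rises came from secreted proteins and transport. Inter-alpha-trypsin inhibitor heavy chain H3-like LOC108564791 had a lowest, median and highest level of 60.8, 107 and 241 CPM in NC ENV, against 22, 42.4 and 96.9 CPM in FC ENV. Its rise of 1.43 ± 0.28 (adjusted p = 0.000498) had the lowest adjusted p of the rises with a characterised product, held in every leave-out, and was even in the lines, with 1.52 ± 0.41 in N2 and 1.35 ± 0.39 in N1. A sulfate anion transporter-like gene, LOC108568406, rose by 1.66 ± 0.46 (adjusted p = 0.0083) and was lost in 18 of 23 leave-outs (adjusted p up to 0.0167). In N1 it had 13.1 to 19.0 CPM in NC ENV, a narrow range, against 1.75 to 19.5 CPM in FC ENV, where the highest was family 27 and the next 6.16 CPM. Phospholipase A2 inhibitor-like LOC108559303 rose by 1.36 ± 0.37 (adjusted p = 0.00797) and was lost in 14 of 23 leave-outs (adjusted p up to 0.0255). The correlation of deviations with the cuticle genes was -0.648 for LOC108564791, -0.677 for LOC108568406 and -0.324 for LOC108559303. Whether these rises were independent of the cuticle genes was not tested.

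The 3 receptors of the nervous system and 2 odorant-binding genes tested gave no call. Of all genes tested only 2.81% were called, so these few genes say little of either function. Among 3 receptors tested, trace amine-associated receptor 5 (LOC108561576) had 0.83 ± 0.35, the guanylate cyclase gcy-28-like gene (LOC108561283) 0.74 ± 0.28 and the kainate receptor 2-like gene (LOC108561581) -0.10 ± 0.37, with adjusted p of 0.0651, 0.046 and 0.848. The odorant-binding proteins, which carry odours to receptors, had 1.02 ± 0.62 for the 19d-like gene LOC108562103 and 1.48 ± 0.90 for the 69a-like gene LOC108567230 (adjusted p = 0.206 and 0.207). The 19d-like gene had 0.754 to 5.55 CPM in NC ENV and 0.0336 to 2.91 CPM in FC ENV in N2, a wide range at these low levels.

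**Figure D4:**
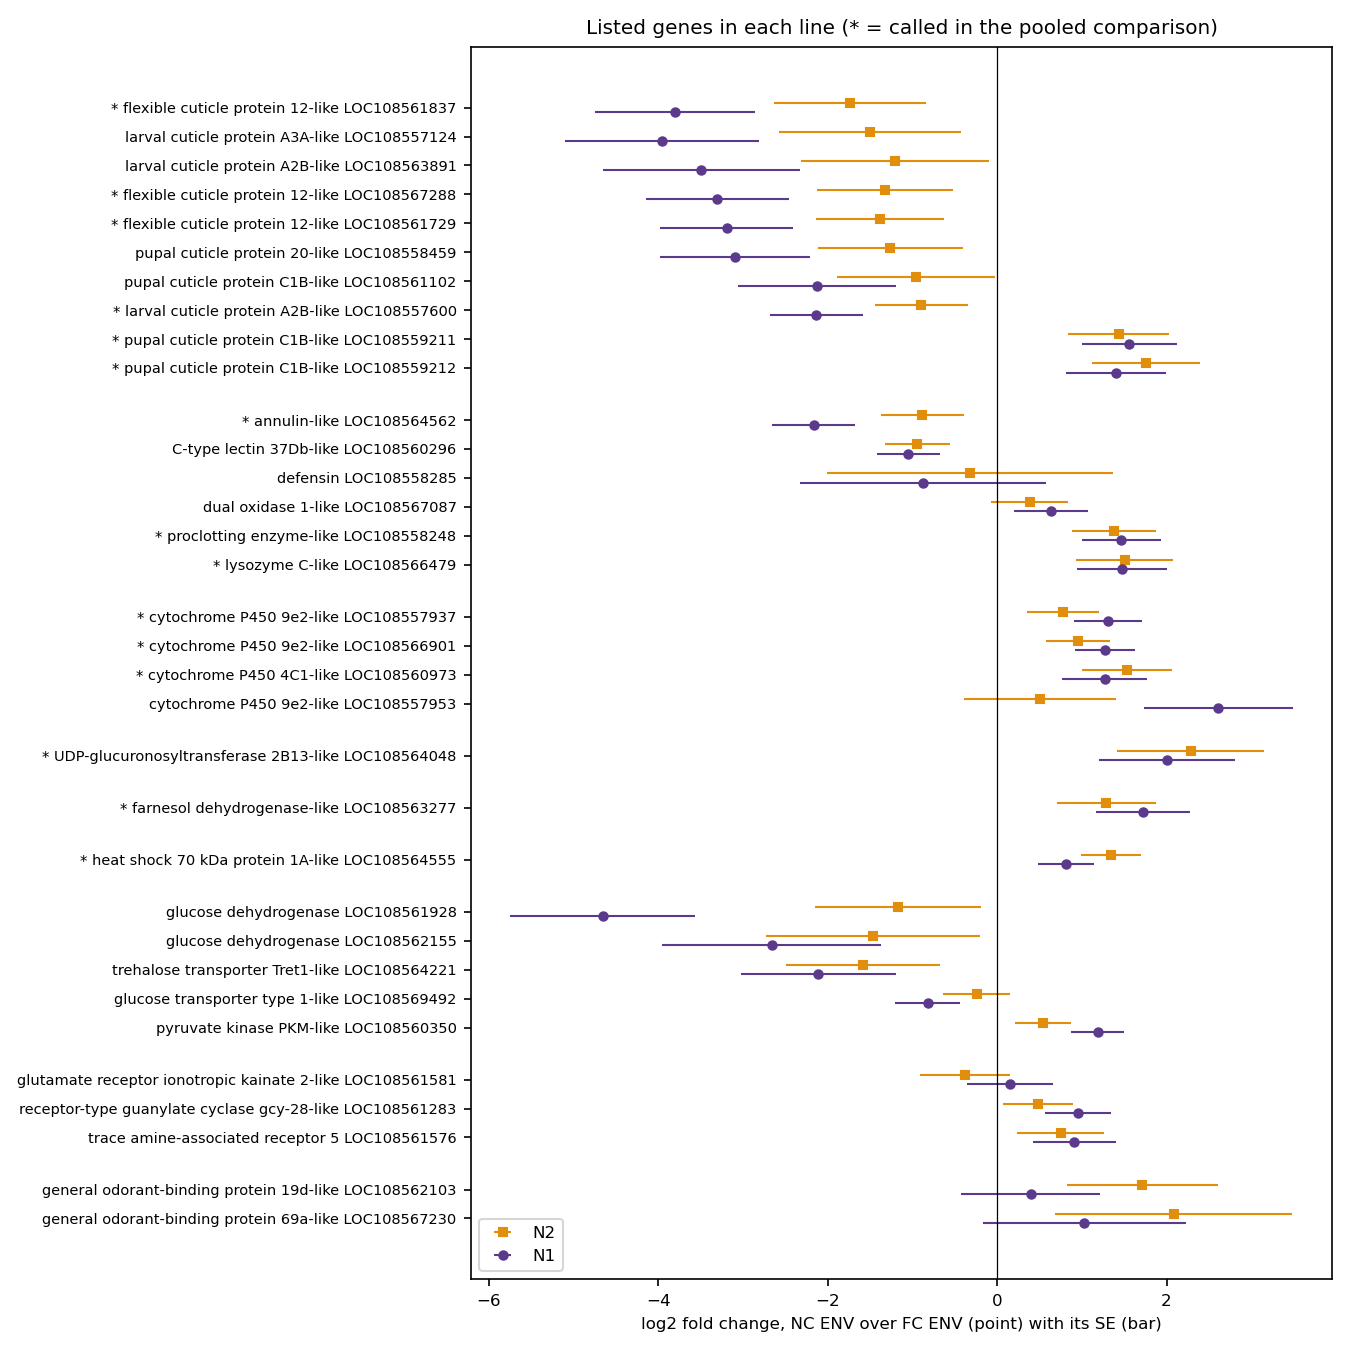
Log2 fold change of NC ENV over FC ENV for the listed genes in N2 (orange squares) and N1 (violet circles), with the SE as bars; a star marks genes called over both lines. The 8 cuticle genes with a negative fold change have the more negative value in N1, while the rises of both pupal C1B-like genes, lysozyme, proclotting enzyme and UDP-glucuronosyltransferase are nearly equal in the lines.

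The largest changes of all lay in identifiers with no product. The 10 largest pooled rises (mean over 50 normalized counts) had log2 fold changes of 5.14 to 8.14, and 1 of them was called in each line. That one, gene11815, had in N2 a lowest, median and highest level of 0.310, 3.50 and 139 CPM in NC ENV, against 0, 0, 0, 0.140 and 0.145 CPM in FC ENV. In N1 it had 0.0641, 10.4 and 141 CPM in NC ENV, against 0, 0.122 and 0.750 CPM in FC ENV. Levels within NC ENV differed widely, and 3 of the 5 FC ENV libraries of N2 were at 0, so the fitted log2 fold change of 7.82 ± 1.37 (adjusted p = 0.000191) is no precise size. The 10 largest falls had fold changes of -5.68 to -3.45, of which gene11238 was the one called in each line. It had medians of 0.539 CPM in NC ENV and 14.3 CPM in FC ENV in N2, and of 0.655 CPM in NC ENV and 8.32 CPM in FC ENV in N1. Its fold change was -3.45 ± 0.57 (adjusted p = 0.000104), and families 8 (5.59 CPM) and 27 (0.164 CPM) again stood with the other environment.

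**Figure D5:**
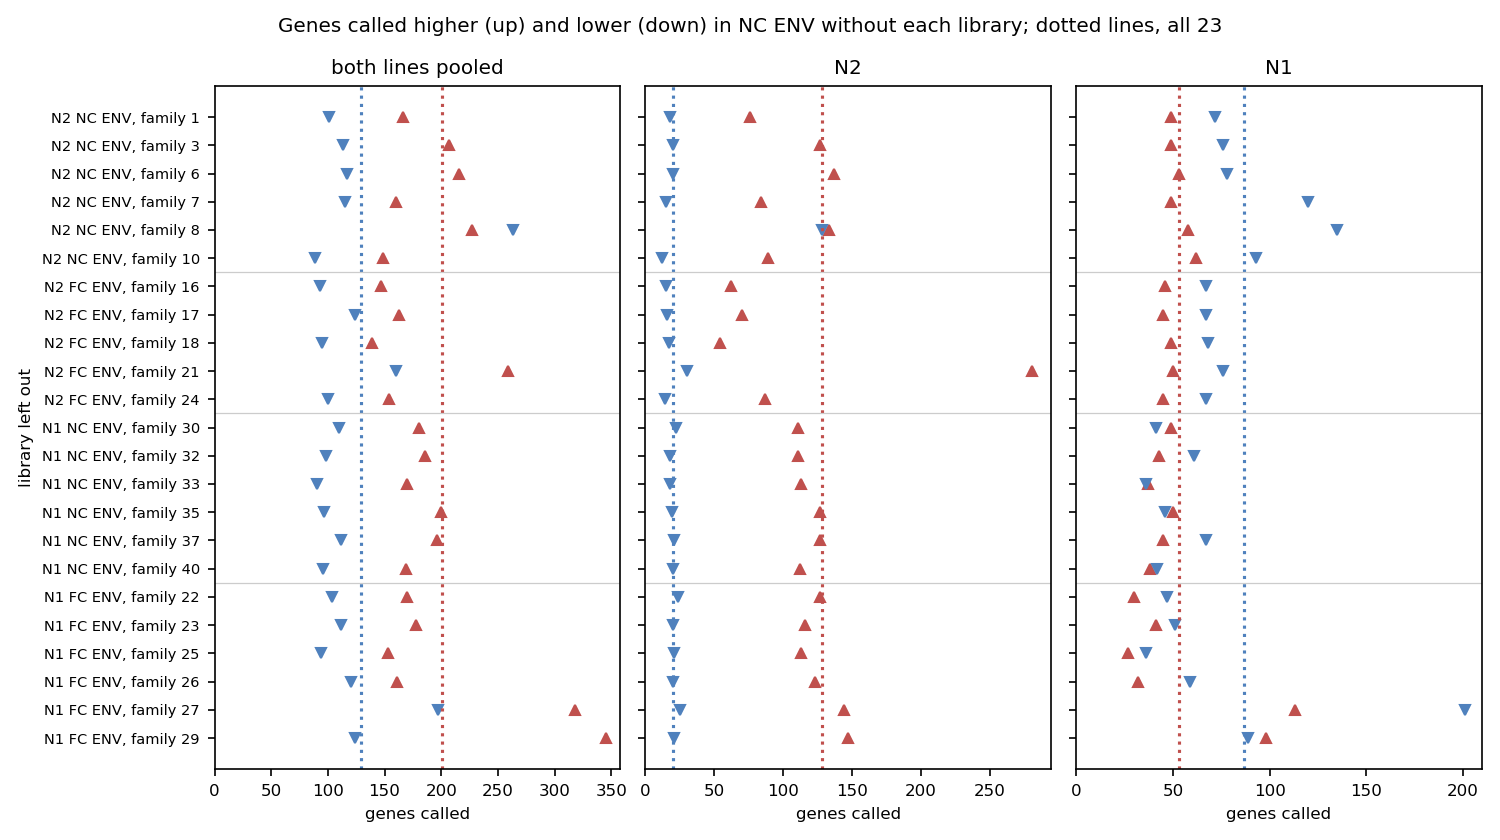
Number of genes called higher (red, pointing up) and lower (blue, pointing down) in NC ENV on the x axis when each library in turn is left out, for both lines pooled, N2 and N1; dotted lines mark the counts with all 23 libraries. N2 has 128 falls without family 8 and 281 rises without family 21, and N1 has 201 falls without family 27.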

How the data were processed

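RNA was measured in 46 libraries of larval heads, 23 of them compared here; 14 bisulfite samples were not analysed here. The authors trimmed 150 bp reads (TrimGalore 0.5.0), mapped them with HISAT2 2.1.0, quantified them with StringTie 2.0.3 and deposited raw whole-number counts per gene; use of strand in counting was not given in the sources used here. Multiples of 4 made up 40.0% of the counts between 1 and 100 (25% of all whole numbers are). No 2 libraries of a group agreed within sampling noise.

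A gene was tested if 3 libraries (10% of 23) had 15 counts or more, with edgeR 4.0.16 in R 4.3.3 (TMM, quasi-likelihood F test, Benjamini-Hochberg): pooled with block as covariate, per line in a fit of 4 groups, and for the differences between lines and, over all 46 libraries, between populations. CPM used TMM sizes, and levels are compared within a gene only. Each SE is approximate: it is the absolute log2 fold change divided by the square root of the F statistic. Alternatives were DESeq2 1.42.0, other filters, thresholds and sets of libraries, and each library left out. The tests were checked on simulated data. Members, lists and tests were chosen with earlier results of these data known. Named genes were those with the largest changes, lowest p or highest levels among called genes with a mean over 50 normalized counts, and listed genes with a product. Unpaired identifiers are limited to 4. Lists of digestive proteases, fatty acid elongation and ribosomal proteins matched 0 paired products.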

Additional observations from a re-analysis of the deposited data

Results flagged for a closer look

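Within the 4 groups of line and environment, Dixon's test looked for a family far from the rest of its group. It was run on log2 CPM of the 47 genes followed and on the first principal component, the main axis of variation among libraries. Of 192 groups tested, 28 had such a family, where chance gives about 1 in 20, and the genes are not independent of each other.

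Family 27 of N1 in FC ENV lay far below the other 5 families of its group for all 8 cuticle genes with a negative fold change: 4.33 CPM for LOC108561837, 6.97 CPM for LOC108561729, 1.44 CPM for LOC108567288, 79.8 CPM for LOC108557600, 5.23 CPM for LOC108563891, 7.14 CPM for LOC108557124, 2.27 CPM for LOC108558459 and 0.419 CPM for LOC108561102. The same family was far below for 4 genes that followed them, with 12.7 CPM for filaggrin-2-like LOC108558458, 2.68 CPM for singed wings 2 (LOC108564219), 0.112 CPM for app1-like LOC108562653 and 0 CPM for phospholipase B1-like LOC108560373.

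Family 21 of N2 in FC ENV was far below for LOC108558459 (232 CPM), LOC108558458 (451 CPM), LOC108559825 (404 CPM) and C-type lectin LOC108560296 (29.9 CPM), and far above for gene1328 (21.5 CPM). Family 8 of N2 in NC ENV was far below for farnesol dehydrogenase LOC108563277 (1.37 CPM) and the sulfate transporter LOC108568406 (0.879 CPM), and far above for gene11238 (5.59 CPM) and glucose dehydrogenase LOC108562155, whose 0.305 CPM compares with 0 CPM in the other 5 families. Family 7 of N2 in NC ENV was far below for LOC108567288 (0.204 CPM), and family 3 for the trehalose transporter LOC108564221 (0 CPM).

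In N1, family 26 in FC ENV was far below for LOC108559212 (58.5 CPM) and P450 4C1-like LOC108560973 (16 CPM), and family 25 far above for LOC108559303 (2.21 CPM). In NC ENV, family 30 was far below for glucose transporter LOC108569492 (0.664 CPM) and family 37 far above for the S6KL-like gene LOC108563905 (6.89 CPM). What set these families apart was not tested, an exchange of labels or samples included.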

How the results depend on the processing

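Against 330 pooled, 148 N2 and 140 N1 calls with all 23 libraries, leaving out each library in turn gave 234 (without family 18 of N2) to 515 (without family 27 of N1) pooled calls, 71 to 311 in N2 and 63 to 314 in N1, and 189 of the 330 were called in all 23 leave-outs. The count was 642, 439 and 353 at an adjusted p under 0.05, 2240, 830 and 868 with no minimum fold change, and 561, 353 and 327 in DESeq2 without shrinkage. Without families 8, 27 and 29 it was 835, 347 and 467, and without family 21 as well 964, 633 and 515. Without the block 206 genes were called, and N1 alone gave 87. DESeq2 with shrinkage gave 158 rises and 162 falls, against 201 and 129. The difference between the lines stayed at 0 except for 6 genes in DESeq2, and that between populations except for 1. The causes were not tested. Of 47 named genes, the 26 called kept their direction in every alternative, 7 were called in all, and 12 of the 21 others were called in at least 1. Signs turned for defensin LOC108558285 (1.32 without family 23 of N1; lowest of the leave-outs -1.01) and the kainate receptor LOC108561581 (0.0518, 0.000482 and 0.0137 without family 26 of N1, 3 of N2 and 16 of N2; lowest of the leave-outs -0.35). No paired analysis was possible because no family was split between environments in the labels. With 5 or 6 families a group the precision of weak genes is limited, as the SEs beside their values show.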

Other observations

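Of the 10 largest pooled rises, 4 had consecutive identifiers, gene11813 to gene11816, with no paired product. Filaggrin-2-like LOC108558458, whose record neighbours that of pupal cuticle 20-like LOC108558459, had a lowest, median and highest level of 17.4, 219 and 2001 CPM in NC ENV, against 12.7, 1169 and 1846 CPM in FC ENV. Its pooled log2 fold change was -2.09 ± 0.64 (SE, adjusted p = 0.0159), which did not pass with all libraries. It passed without family 8 of N2 (adjusted p = 0.00155) and also without family 27 of N1.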
